A study of Mus musculus with 24 samples.

Results

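Type I interferon-stimulated genes were followed in CT26 tumours through 10 genes chosen by symbol: Irf7, Bst2, Zbp1, Oas2, Oas3, Ifit1, Ifit2, Ifit3, Isg15 and Mx1. All 10 were among the 750 genes of the mouse immune panel. Of these 10, 9 passed the filter on low values and were tested among 600 genes, and Mx1 did not pass. CT26 is a colon carcinoma line of the BALB/c mouse. The cells were kept in culture for 40 weeks with 0.5 uM NP1867, an inhibitor of the mismatch repair protein PMS2, or with its solvent DMSO, and were then grown as tumours in mice. The mice were randomised on day 7, at a tumour volume of about 50 mm3, to a PD-1 blocking antibody (clone RMP1-14) or to its isotype control (clone 2A3), each given 4 times at 5 mg/kg. The groups were NP1867 anti-PD-1, NP1867 isotype, DMSO anti-PD-1 and DMSO isotype, with 6 tumours each, collected on day 19 and 24 hours after dosing ended. All 24 tumours thus came from cells kept 40 weeks in culture, and the number of parallel cultures behind each arm is not given in the sources used here. The tumours measured were chosen near the mean volume of their group, and p-values here measure only the spread among such tumours.

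Type I interferons are secreted after cells sense foreign or misplaced nucleic acids, and they act on nearly all cells through the receptor chains Ifnar1 and Ifnar2. The receptor-bound kinases Jak1 and Tyk2 then pass the signal to transcription factors that bind the interferon-stimulated response element in promoters and switch on a large set of genes. In tumours these genes report on interferon seen by cancer cells and by infiltrating immune cells alike. Interferon-gamma, made mainly by T cells and natural killer cells, acts through another receptor with a related signalling chain, and the targets of both kinds of interferon overlap.

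RNA from formalin-fixed sections was counted on the NanoString nCounter platform, where each probe molecule is read without amplification. Values are log2 scaled counts as the authors deposited them, and levels are compared only between tumours, not between genes, since each gene has its own probe. The counts behind the values summed to between 62699 and 687032 per tumour, and 4 tumours fell under 200000 counts: numbers 11 and 37 of DMSO anti-PD-1 and numbers 6 and 23 of DMSO isotype. Tumours are named by group and by the number in their title. The pan-leukocyte gene Ptprc averaged 9.40 ± 0.50 in NP1867 anti-PD-1, 8.86 ± 0.69 in NP1867 isotype, 9.05 ± 0.44 in DMSO anti-PD-1 and 8.73 ± 0.36 in DMSO isotype tumours (log2, SD, n = 6 each). The epithelial marker Epcam was low, with a mean of 14.5 counts per tumour, and Cdh1 had 31.6, so these epithelial genes gave little direct signal of the carcinoma cells. Of the proliferation genes in the same marker list, Birc5 had a mean of 335.5 counts and Cdk1 had 30.0. How much of the RNA came from carcinoma cells was not tested. In whole-tumour RNA, a change in the number of cells that express a gene and a change in RNA per cell cannot be told apart.

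The proximal promoters of the members are shown first, because the interferon-stimulated response element has a simple letter pattern. RefSeq promoters of the GRCm38.p6 assembly, from 250 bases before to 50 bases after each start, were at hand for 7 members (8 promoters, as Ifit2 had 2), and Zbp1, Oas2 and Mx1 are named only. The pattern searched was GAAANNGAAA on either strand, which reads TTTCNNTTTC on the other, and overlapping matches were counted separately. It was present in 5 of the 8 promoters (62.5%), against 1131 of all 32851 promoters of the same length (3.44%) and 35 of 539 promoters of the other panel genes tested (6.49%). It was also in 3 of the 7 promoters at hand for the 8 genes most like the members, Ifi35, Cmpk2, Xaf1, Ddx58, Usp18, Ddx60, Ifi44 and Ifih1 (42.9%). The full window is given for Isg15, a ubiquitin-like protein that is attached to other proteins, which had 3 overlapping matches, and for Ifit3, which had 2. For Oas3, Bst2 and Ifit1 the matches with 15 bases on each side are given. All are written 5′ to 3′ on the gene's strand, with the matches in capitals.
Isg15 (chr4:156200769-156201068, minus strand): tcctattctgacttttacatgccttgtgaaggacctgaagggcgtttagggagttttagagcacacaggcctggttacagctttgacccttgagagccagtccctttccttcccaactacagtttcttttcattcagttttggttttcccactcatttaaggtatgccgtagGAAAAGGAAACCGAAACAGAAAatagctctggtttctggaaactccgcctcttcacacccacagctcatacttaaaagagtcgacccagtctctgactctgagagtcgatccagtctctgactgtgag
Ifit3 (chr19:34583279-34583578, plus strand): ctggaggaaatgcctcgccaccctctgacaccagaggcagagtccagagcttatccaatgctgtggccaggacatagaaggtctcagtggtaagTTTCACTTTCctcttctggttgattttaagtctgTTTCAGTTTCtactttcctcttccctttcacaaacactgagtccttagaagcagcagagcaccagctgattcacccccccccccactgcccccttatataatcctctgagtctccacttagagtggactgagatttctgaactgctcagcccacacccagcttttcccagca
Oas3 (chr5:120777710-120777749, minus strand): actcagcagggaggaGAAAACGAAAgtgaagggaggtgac
Bst2 (chr8:71537572-71537617, minus strand): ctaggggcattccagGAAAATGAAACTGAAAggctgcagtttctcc
Ifit1 (chr19:34640770-34640828, plus strand): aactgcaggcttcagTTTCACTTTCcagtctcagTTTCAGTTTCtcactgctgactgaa

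Counted to the first base of a match, the Isg15 matches lay 78, 72 and 66 bases before the start, the Bst2 matches 130 and 124, the Ifit3 matches 156 and 122, the Ifit1 matches 104 and 85, and the Oas3 match 75. Isg15 and Bst2 carry their matches as an uninterrupted series spaced 6 bases apart, whereas those of Ifit3 and Ifit1 are separate. No match to these letters was in the Irf7 window or in either Ifit2 window. A match describes letters and does not show that a factor was bound in these tumours.

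Over both cultures, 4 of the 9 tested members rose under anti-PD-1: Irf7, Bst2, Zbp1 and Oas3, by 1.42- to 1.71-fold. This count was read against a background of 27% of the 600 tested genes called higher in the same comparison, or 29.3% in either direction, by limma with Benjamini-Hochberg adjustment at 0.05. The other 5 tested members had positive estimates but did not pass. The members' median log2 fold change was 0.48, against 0.33 over all tested genes, and 9 of 9 were positive, against 76.8% of all tested genes. The members varied together between tumours (median r 0.78, given below), so the 9 signs are not independent results. Centring each tumour on its median left 8 of 9 positive, with Ifit2 at -0.01, and took away all 4 calls.

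Irf7, the transcription factor that amplifies type I interferon production, was the member with the largest share of its variance between groups. Its lowest, median and highest values were 8.62, 9.77 and 10.24 in NP1867 anti-PD-1 tumours and 8.10, 9.17 and 9.53 in NP1867 isotype tumours. They were 8.48, 9.54 and 9.86 in DMSO anti-PD-1 tumours and 7.85, 8.53 and 9.46 in DMSO isotype tumours. In both cultures the ranges overlapped, and 10 of 12 anti-PD-1 tumours lay above the mean of the 12 isotype tumours. The averaged log2 fold change was 0.68 (SE 0.22, 95% interval 0.24 to 1.13, limma adjusted p = 0.0273), with means of 9.51 ± 0.56 in anti-PD-1 and 8.83 ± 0.58 in isotype tumours (SD, n = 12 each).

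Zbp1, a sensor of nucleic acids in the Z conformation that can start necroptosis, had the largest estimate of the members. It had 9.44, 10.35 and 10.68 (lowest, median, highest) in NP1867 anti-PD-1 against 8.06, 9.52 and 10.65 in NP1867 isotype tumours, and 9.07, 10.11 and 10.32 in DMSO anti-PD-1 against 8.15, 9.41 and 9.77 in DMSO isotype tumours. The isotype groups reached far lower than the anti-PD-1 groups, while the tops of the NP1867 groups nearly met. The averaged log2 fold change was 0.77 (SE 0.26, 95% interval 0.24 to 1.30, limma adjusted p = 0.0302). Of the 12 anti-PD-1 tumours, 11 were above the isotype mean and 10 above the isotype median.

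Bst2, or tetherin, holds budding virus particles at the cell surface and in the mouse also marks plasmacytoid dendritic cells. Its values were 11.35, 11.70 and 12.14 in NP1867 anti-PD-1 against 10.58, 11.28 and 11.67 in NP1867 isotype tumours, and 11.13, 11.81 and 12.16 in DMSO anti-PD-1 against 10.46, 11.25 and 11.84 in DMSO isotype tumours. In the NP1867 tumours all 6 anti-PD-1 values lay above the isotype mean although the ranges overlapped. The averaged log2 fold change was 0.51 (SE 0.15, 95% interval 0.19 to 0.83, limma adjusted p = 0.0234).

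Oas3 and Oas2 are oligoadenylate synthetases, which make the messenger that activates RNase L. Oas3 had 6.48, 7.01 and 7.49 in NP1867 anti-PD-1 against 5.75, 6.31 and 6.66 in NP1867 isotype tumours, and 6.13, 6.86 and 7.31 in DMSO anti-PD-1 against 5.01, 6.30 and 7.31 in DMSO isotype tumours. The DMSO groups overlapped nearly up to the top of both: the highest isotype value, that of tumour 23, which had the fewest counts of all, lay just under the highest anti-PD-1 value, that of tumour 11. The averaged log2 fold change of Oas3 was 0.59 (SE 0.20, 95% interval 0.17 to 1.02, limma adjusted p = 0.0347). Oas2 averaged 8.69 ± 0.33 in NP1867 anti-PD-1 and 8.25 ± 0.47 in NP1867 isotype tumours, and 8.73 ± 0.47 in DMSO anti-PD-1 and 8.22 ± 0.61 in DMSO isotype tumours (SD, n = 6 each). Its averaged log2 fold change of 0.48 did not pass (SE 0.19, limma adjusted p = 0.0555). Of the 12 anti-PD-1 tumours, 11 were above the Oas2 isotype mean and 9 above the isotype median.

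The Ifit genes, whose proteins bind viral RNA and limit its translation, and Isg15 were the members furthest from passing. Ifit1 averaged 7.90 ± 0.37 in NP1867 anti-PD-1 and 7.62 ± 0.53 in NP1867 isotype tumours, and 7.84 ± 0.47 in DMSO anti-PD-1 and 7.42 ± 0.58 in DMSO isotype tumours (SD, n = 6 each). Isg15 averaged 9.57 ± 0.53 in NP1867 anti-PD-1 and 9.20 ± 0.50 in NP1867 isotype tumours, and 9.38 ± 0.46 in DMSO anti-PD-1 and 8.91 ± 0.68 in DMSO isotype tumours. The averaged log2 fold changes were 0.35 for Ifit1, 0.33 for Ifit2, 0.44 for Ifit3 and 0.42 for Isg15, with limma adjusted p-values from 0.117 for Isg15 to 0.165 for Ifit3. For each of these 4 genes, 9 of 12 anti-PD-1 tumours were above the isotype mean.

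**Figure D1:**
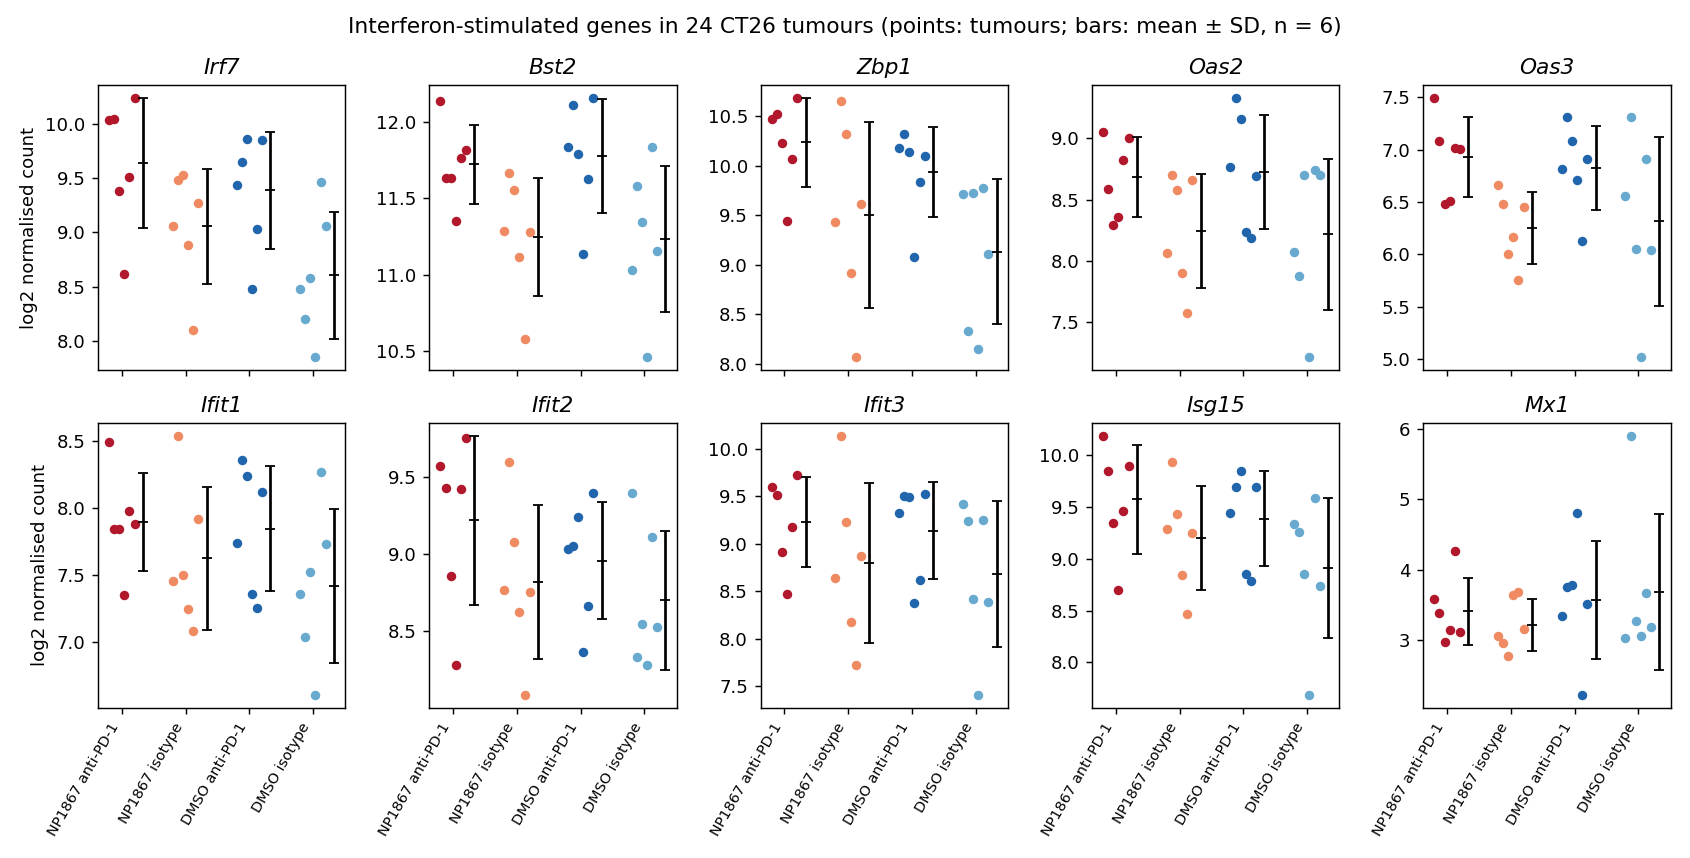
Log2 scaled counts of the 10 genes in each of the 24 tumours, by group, with 1 point per tumour and the mean with its SD (n = 6). For all 10 genes the anti-PD-1 and isotype groups overlapped in both cultures, and Mx1 lay between 2.22 and 5.91.

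Mx1, a dynamin-like GTPase that blocks influenza virus and is defective in many laboratory mouse strains, was close to the limit of counting. It had 7 to 15 counts in NP1867 anti-PD-1, 5 to 18 in NP1867 isotype, 5 to 19 in DMSO anti-PD-1 and 2 to 15 in DMSO isotype tumours. At this depth a difference between groups was not detectable: in a fit without the filter its averaged anti-PD-1 log2 fold change was 0.04 (SE 0.31, limma adjusted p = 0.915). The interferons themselves were as low, with 3 to 43 counts for Ifna1, 4 to 23 for Ifna2, 4 to 41 for Ifna4 and 3 to 36 for Ifnb1 over the 24 tumours, and none of the 4 was tested.

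Within 1 culture no member passed. In NP1867 tumours 0 of 9 were called for anti-PD-1 against isotype, where 12.3% of all genes were called (12% higher). By unadjusted limma p-values under 0.05 the count was 2 of 9, against 211 of the 600 tested genes, and limma-voom on the recovered counts called 0. The members' median log2 fold change was 0.44, against 0.43 over all tested genes, and the interval of Bst2 was 0.02 to 0.93, that of Oas3 0.08 to 1.27 and that of Zbp1 -0.01 to 1.49. In DMSO tumours 0 of 9 were called, as were 0% of all genes, by limma and by limma-voom alike. An unadjusted limma p under 0.05 was reached by 3 of the 9 members and by 85 of the 600 tested genes. There the members' median was 0.51, against 0.23 over all tested genes, with the largest estimates for Zbp1 (0.81) and Irf7 (0.78, 95% interval 0.15 to 1.41, limma adjusted p = 0.302). No member's groups were free of overlap in either culture, where 4.17% of all tested genes in NP1867 and 0.5% in DMSO tumours had groups that did not overlap. Both anti-PD-1 comparisons enter the averaged one, so their values are not independent of it.

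The response to anti-PD-1 was not shown to differ between cultures for any member. The difference between the responses, NP1867 minus DMSO tumours, lay between -0.20 for Irf7 (95% interval -1.09 to 0.70) and 0.17 for Oas3 on the log2 scale, with a median of -0.07 against 0.13 over all tested genes. The limma adjusted p was 0.995 for every member, limma-voom called 0, and 0% of all genes were called. An unadjusted limma p under 0.05 was reached by 0 of 9 members and by 11 of the 600 tested genes. The 95% interval was narrowest for Bst2, at -0.70 to 0.57, and reached from -1.07 to 1.03 for Ifit3.

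NP1867 culture by itself moved no member past the threshold. In isotype tumours the log2 fold changes of NP1867 against DMSO ran from -0.06 for Oas3 to 0.45 for Irf7 (95% interval -0.18 to 1.08), with a median of 0.12 against 0.10 over all tested genes. In anti-PD-1 tumours they ran from -0.05 for Bst2 to 0.30 for Zbp1, with a median of 0.10 against 0.27 over all tested genes. After centring the members' median was -0.23 in anti-PD-1 tumours (all tested genes -0.06) and near 0 in isotype tumours. In each, 0 of 9 members were called by limma, 0 had an unadjusted p under 0.05 and limma-voom called 0, where 0.167% of all genes were called in isotype tumours (0% higher) and 0% in anti-PD-1 tumours. Of the 600 tested genes, 46 had an unadjusted limma p under 0.05 in isotype tumours and 69 in anti-PD-1 tumours. All members' groups overlapped, against 0.333% and 1.33% of tested genes without overlap in isotype and in anti-PD-1 tumours. Averaged over both antibodies, Irf7 had a log2 fold change of 0.35 (95% interval -0.10 to 0.80, limma adjusted p = 0.348). In that comparison 0 of 9 members were called by limma or by limma-voom, where 2% of all genes were called (1.17% higher). An unadjusted limma p under 0.05 was reached by 0 members and by 121 of the 600 tested genes.

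**Figure D2:**
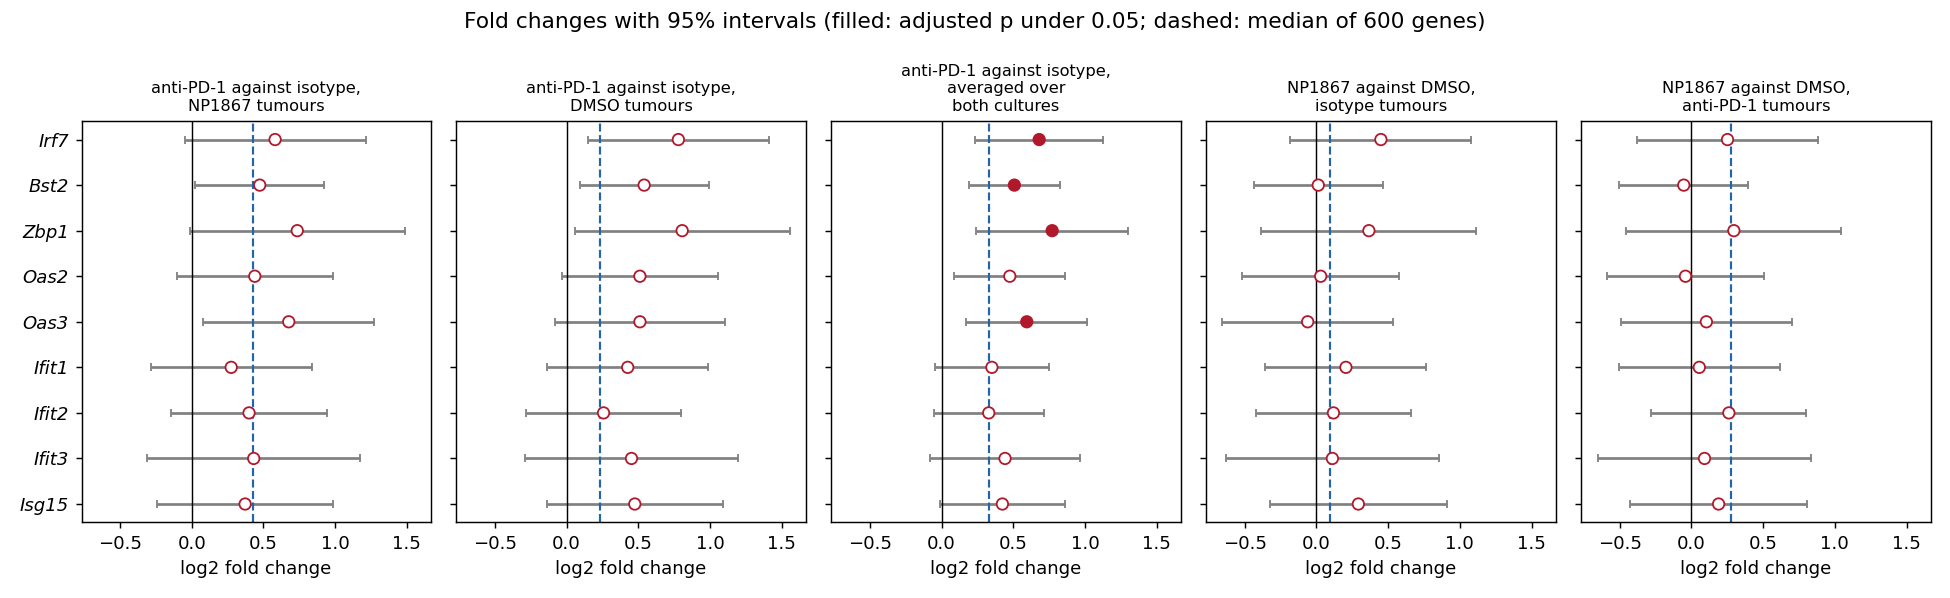
Log2 fold changes of the 9 tested members with 95% intervals from the limma fit, by comparison. The estimates drawn are as deposited, where those for anti-PD-1 are all above 0 and those averaged over both cultures lie between 0.33 and 0.77. Centred estimates are not drawn. Centring on each tumour's median put 5 members below 0 in NP1867 tumours and Ifit2 at -0.01 in the averaged comparison. The NP1867 against DMSO estimates lie on both sides of 0.

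The averaged rise depended on the scaling of the tumours, as did the background. With each tumour centred on its median, the members' median log2 fold change was 0.14 (all tested genes -0.01) and 0 of 9 were called; under quantile normalisation it was 0.22 (all tested genes -0.02) and only Irf7 was called. Of all tested genes, 162 were called higher and 14 lower as deposited, 52 higher and 94 lower after centring, and 63 higher and 94 lower after quantile normalisation. Within cultures, centring put the members' median at -0.01 in NP1867 tumours, where Oas2, Ifit1, Ifit2, Ifit3 and Isg15 turned negative (lowest -0.17, Ifit1), and at 0.28 in DMSO tumours. With Ptprc as a covariate 0 of 9 were called, the estimates then being 0.42 for Irf7, 0.35 for Bst2, 0.39 for Zbp1 and 0.47 for Oas3. The count also depended on single tumours: it was 1 when NP1867 anti-PD-1 tumour 78 or DMSO isotype tumour 55 was left out, and 2 when NP1867 anti-PD-1 tumour 30 or 45, NP1867 isotype tumour 49 or 57, or DMSO anti-PD-1 tumour 7 was. Bst2 was called in all of these fits that left out 1 tumour, and in all of them the 4 estimates stayed positive.

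Some markers of immune and stromal cells also rose under anti-PD-1, and their part in the result was not tested beyond the Ptprc covariate. The counts of risen markers stand beside the 27% of all 600 tested genes called higher in the same comparison, and the lists were not tested against that share. In the averaged anti-PD-1 comparison, all 6 tested T cell markers rose (median log2 fold change 0.86), as did 3 of 5 plasmacytoid dendritic cell markers other than Bst2 (Irf8, Il3ra and Tlr9, list median 0.64), 1 of 7 macrophage markers (Cd68, list median 0.43) and 0 of 3 carcinoma and proliferation markers (median -0.14). The list with the highest median was that of fibroblasts, at 0.93 with 2 of 5 risen (Thy1 and Fap). Of the neutrophil markers 1 of 3 rose (Csf3r, list median 0.83), of the conventional dendritic cell markers 2 of 2 (Ccr7 and Xcr1, median 0.72), of the natural killer cell markers 1 of 3 (Klrk1, median 0.29), of the endothelial markers 1 of 5 (Vwf, median 0.04) and of the B cell markers 0 of 1 (0.70). After centring, 3 of 6 T cell markers, 2 of 5 plasmacytoid dendritic cell markers, Ccr7 and Csf3r rose, no fibroblast marker was called (median 0.60), and the macrophage marker Mrc1, the endothelial marker Kdr and the proliferation genes Birc5 and Cdk1 fell. Ptprc itself had 0.43 (SE 0.20, limma adjusted p = 0.0986). The summed level of the 9 T cell markers on the panel ran from 9.03 to 9.95 in NP1867 anti-PD-1 and from 7.46 to 9.11 in NP1867 isotype tumours, and from 8.79 to 9.39 in DMSO anti-PD-1 and from 7.74 to 9.73 in DMSO isotype tumours (log2). For the 5 plasmacytoid dendritic cell markers it ran from 9.06 to 10.30 in NP1867 anti-PD-1 and from 8.14 to 9.31 in NP1867 isotype tumours, and from 8.94 to 9.33 in DMSO anti-PD-1 and from 8.28 to 9.31 in DMSO isotype tumours. None of the markers on the panel was at 0 on average, although some had means under 20 counts, such as Cd2 of T cells, Cd79a of B cells and Klrb1c of natural killer cells. The defining plasmacytoid genes Siglech and Spib were not among the 750 genes with deposited values.

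Rising and falling together from tumour to tumour was a feature of the members apart from any group change. After removal of the 4 group means, the 36 pairs of tested members had a median Pearson r of 0.78 (range 0.38 to 0.95, n = 24 tumours), against 0.28 over all pairs of the 600 tested genes and 0.24 between members and other genes. After each tumour was centred on its median, which removes what all genes of a tumour share, the members' median was 0.75 and that of all pairs 0.03. Within single groups of 6 the members' median was 0.84 in NP1867 anti-PD-1, 0.88 in NP1867 isotype, 0.88 in DMSO anti-PD-1 and 0.66 in DMSO isotype tumours. In the same order, the median over all pairs of tested genes was 0.39, 0.41, 0.10 and 0.30. Between members and other genes it was 0.54, 0.46, 0.12 and 0.06, so in NP1867 tumours other genes shared more of the variation. Of the 36 pairs, 35 had a permutation p under 0.05 after Benjamini-Hochberg adjustment over the pairs, by Pearson and by Spearman correlation. That permutation test asks whether r differs from 0 and was run on the member pairs only. The share of all pairs of tested genes that would pass it is not known, so the count is not particular to the members.

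**Figure D3:**
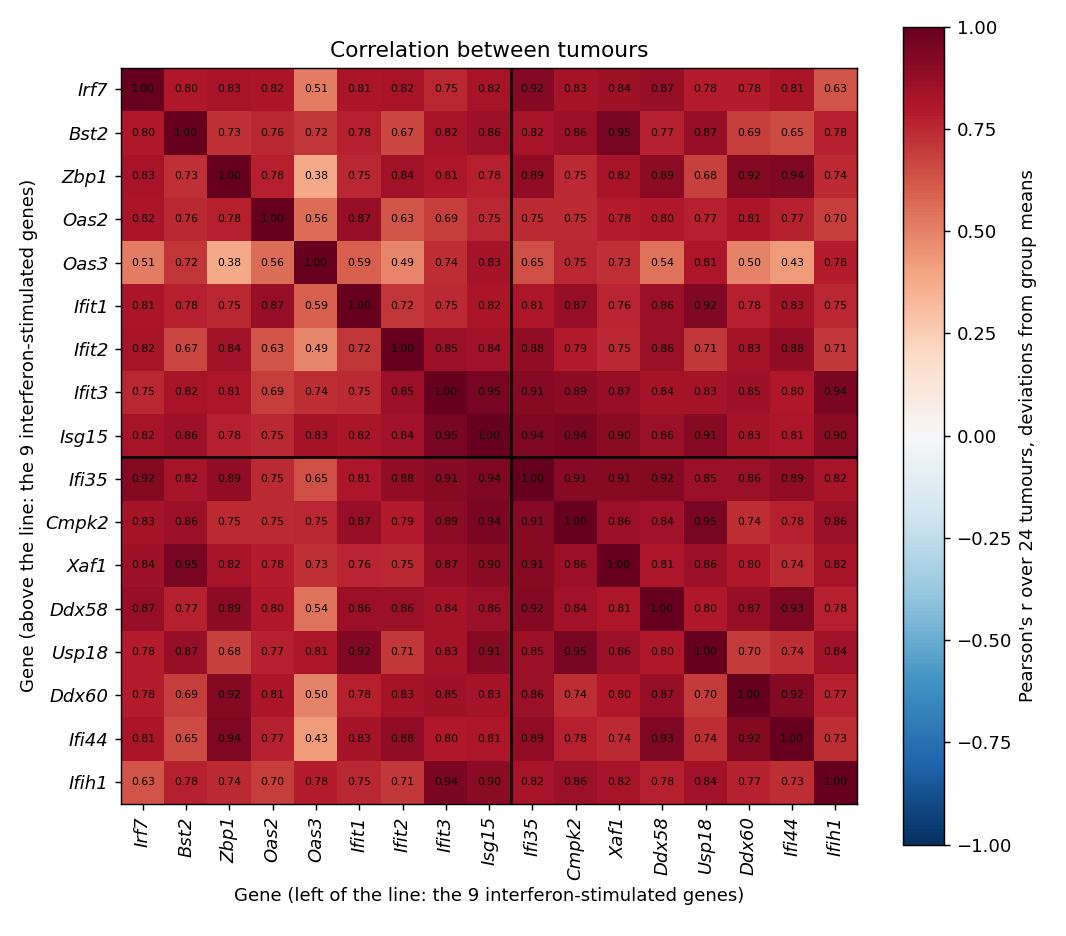
Pearson correlation between the members over 24 tumours, on deviations from the 4 group means. Among the 9 tested members, Isg15 and Ifit3 have the highest value (0.95) and Oas3 and Zbp1 the lowest (0.38). Mx1 is not drawn, and its r with the mean of the others was -0.03.

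Ifit3 and Isg15 were the closest pair. Their r was 0.95 and their Spearman rho 0.94, each with a permutation p of 1e-05, the smallest that 100000 permutations can give, and r stayed at 0.94 without the 2 tumours farthest from the median. Within each group of 6 it was between 0.96 and 0.98. Oas2 and Ifit1 followed with 0.87 (rho 0.88) and Bst2 and Isg15 with 0.86 (rho 0.78). Oas2 and Oas3, both on chromosome 5, had r = 0.56 (rho 0.51), with 0.31 without the 2 farthest tumours, and the 3 Ifit genes on chromosome 19 had r from 0.72 to 0.85 with each other. The differences between these correlations were not tested.

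Zbp1 and Oas3 were the pair that did not pass, with r = 0.38 and rho = 0.41 (permutation p = 0.1004 after adjustment for r). Without the 2 tumours farthest from the median r was 0.10, and without the 4 tumours under 200000 counts it was 0.61. DMSO isotype tumour 23 combined the highest Oas3 value of its group, 7.31, with a low Zbp1 value. Oas3 had 23 to 186 counts, the fewest of the tested members, and its deviations had r = 0.54 with the log2 scaling factor of the tumour. For the genes of the closest pair that r was 0.42 (Ifit3) and 0.31 (Isg15). For the other tested members it lay between -0.15 (Irf7) and 0.17 (Bst2).

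**Figure D4:**
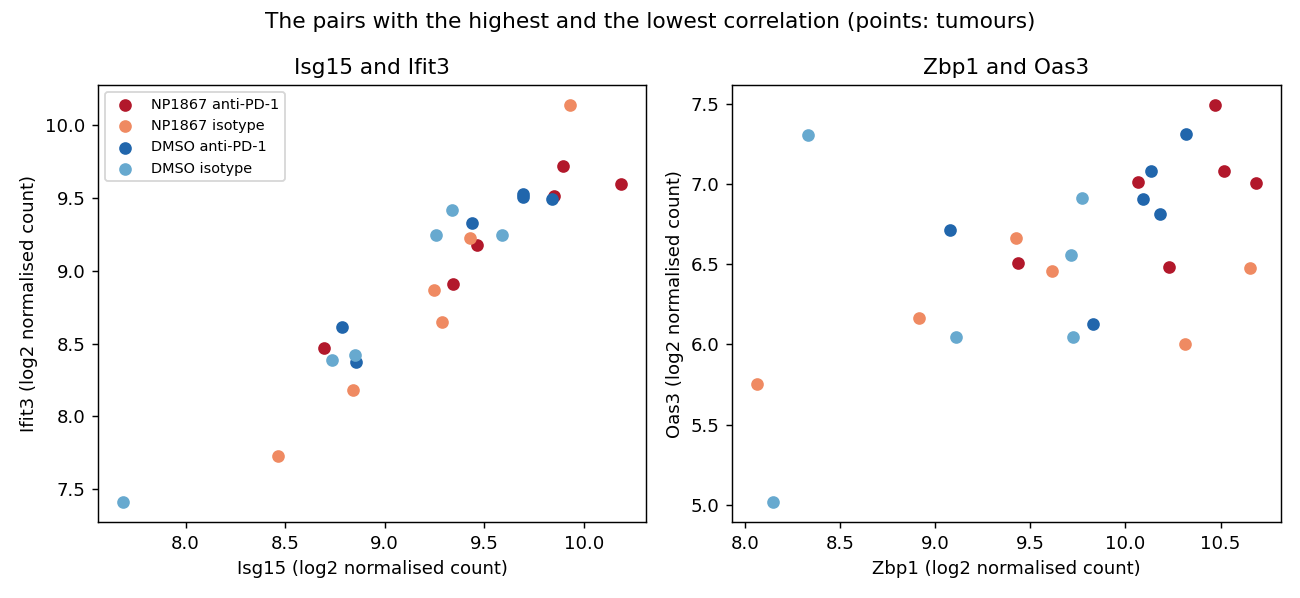
Log2 scaled counts of selected pairs of members in the 24 tumours, coloured by group. The pairs were chosen by the r of deviations from group means (highest, Ifit3 and Isg15 at 0.95, and lowest, Zbp1 and Oas3 at 0.38), while the axes show the values as deposited.

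Single tumours were low for all or most of the tested members. In DMSO isotype tumour 55 all 9 tested members had the lowest value of their group, as they had in NP1867 isotype tumour 57. In NP1867 anti-PD-1 tumours the lowest was tumour 50 for 7 members and tumour 48 for the remaining 2, and in DMSO anti-PD-1 tumours it was tumour 37 for 5 members and tumour 43 for 4. Tumours 55, 57 and 50 were also those with the lowest Ptprc value of their groups (8.12, 7.80 and 8.92), and tumour 57 had the lowest median over all 750 genes of its group (6.12). Other tumours went the other way. The lowest Ptprc value of DMSO anti-PD-1 was in tumour 11 (8.44), which had the highest members' mean of its group (9.48). The lowest median over all genes of DMSO isotype was in tumour 59 (5.99), which also had the highest members' mean there (9.22). At the top, NP1867 isotype tumour 26 led its group for 7 members and DMSO isotype tumour 59 for 6. The mean of the 9 members was 9.24 ± 0.41 in NP1867 anti-PD-1, 8.75 ± 0.52 in NP1867 isotype, 9.11 ± 0.41 in DMSO anti-PD-1 and 8.58 ± 0.52 in DMSO isotype tumours (log2, SD, n = 6 each). Between-group differences held 36.1% of the variance of Irf7, 34.9% of Bst2 and 31.6% of Zbp1 but only 12.2% of Ifit3, against a median of 26.2% over all tested genes, so most of the variance of each member lay between tumours of the same group. As descriptions over 24 tumours, the deviations of the members' mean had r = 0.58 with Ptprc, 0.43 with the tumour's median over all 750 genes, 0.19 with the log2 scaling factor and -0.03 with the log2 total count.

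Ranked by Pearson r with the members' mean over 24 tumours, on deviations from group means, the first 8 of 591 tested non-members were Ifi35 (0.96), Cmpk2 (0.94), Xaf1 (0.93), Ddx58 (0.92), Usp18 (0.91), Ddx60 (0.89), Ifi44 (0.88) and Ifih1 (0.88). The same 8 led after each tumour was centred on its median. Ddx58 and Ifih1 encode the RNA sensors RIG-I and MDA5, Usp18 removes Isg15 from proteins and dampens receptor signalling, and Cmpk2 is a mitochondrial nucleotide kinase. Over the 15 tested genes of the list of other type I interferon-stimulated genes the median r was 0.86, with Ifi27 (0.18), Ifitm1 (0.37) and Ifitm2 (0.44) as the ones outside the first 50 genes. The 24 tested genes of the interferon-gamma list had a median r of 0.59, against 0.28 over all 591 genes. Gbp5 (0.80) was near the upper end of that list, and among its low genes were H2-Aa (0.32), Ciita (0.27), Tap2 (0.16) and Ido1 (0.03).

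**Figure D5:**
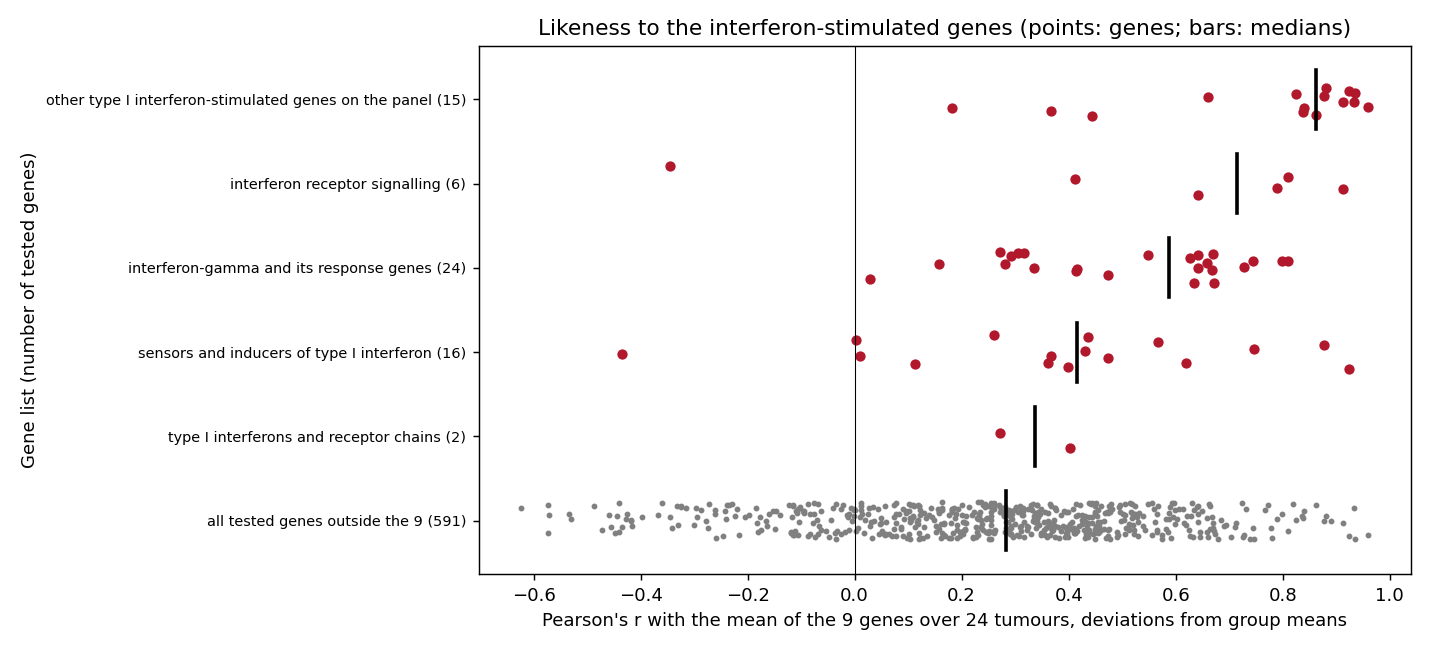
Pearson r of each tested gene with the mean of the 9 tested members over 24 tumours, on deviations from group means, by gene list. The list of other type I interferon-stimulated genes has a median of 0.86, the interferon-gamma list 0.59 and all tested non-members 0.28.

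Other genes of the pathway were counted in the averaged anti-PD-1 comparison (limma, adjusted over all tested genes), where 27% of all tested genes were called higher. The lists were not tested against each other or against that share. Of the other type I targets 1 of 15 rose, Xaf1, a pro-apoptotic factor (log2 fold change 0.63, SE 0.17, adjusted p = 0.0141), and the list median was 0.31. Of 6 genes of receptor signalling 3 rose, among them the kinase Tyk2 (0.71) and the feedback inhibitor Socs1 (0.37, adjusted p = 0.0352). Neither receptor chain passed, with Ifnar1 at -0.13 and Ifnar2 at 0.18, but Ifnar1 was called lower after centring and after quantile normalisation. Of 16 sensors and inducers 2 rose, the DNA sensor Tlr9 (0.64) and the kinase Ikbke (0.48), with a list median of 0.25. Tyk2 (1.0, adjusted p = 0.0257) and Tlr9 (0.90, adjusted p = 0.0328) also rose in NP1867 tumours alone. These lists too depended on the scaling: after centring none of the risen genes was called and the median was -0.03 for the other type I targets, 0.10 for receptor signalling and -0.09 for sensors and inducers, and after quantile normalisation Xaf1 was called, as was 1 of the 6 genes of receptor signalling.

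Of the interferon-gamma list 20 of 24 genes rose, with a median log2 fold change of 0.64. After centring 7 rose (median 0.30) and after quantile normalisation 10 rose (median 0.40), with H2-Aa, Cd274 and Irf8 among them in each. Among the 20 were H2-Aa, a chain of MHC class II (1.54), Cd274, the gene of the checkpoint ligand PD-L1 (0.92), the transcription factor Irf8 (0.66) and the peptide transporter Tap2 (0.64). In NP1867 tumours alone, where 12% of all tested genes were called higher, 11 of the 24 rose, among them H2-Aa (1.88) and H2-Ab1 (1.86), and of the other type I targets 0 of 15 did. In DMSO tumours alone 0% of all tested genes were called, so the count of 0 in each of these lists says nothing particular about them. Some genes of the lists answer to both kinds of interferon. For NP1867 against DMSO averaged over both antibodies, the receptor kinase Jak1 was the 1 gene of these lists that passed (0.52, SE 0.12, limma adjusted p = 0.0163); it passed also after quantile normalisation and not after centring.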

How the data were processed

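The authors deposited 1 table of log2 values for 750 genes in 24 tumours measured on the nCounter Mouse PanCancer Immune panel; 100 ng of RNA from 3 sections (10 um) was hybridised, per the labels' protocols. Each deposited log2 value was, within 0.05 of a whole count, a whole count times 1 factor per tumour (100% of values), and the factors ran from 0.522 to 5.457. The normalisation steps behind the factors are not given in the sources used here. Counts give the depth: in tumours with few counts each count is a wide step on the log2 scale. No pair among 276 held identical counts.

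The 600 genes whose mean reached log2 of 20 were tested. limma 3.58.1 in R 4.3.3 fitted 4 group means to all 24 tumours, with 20 residual degrees of freedom, empirical Bayes with a mean trend, two-sided p-values and Benjamini-Hochberg adjustment over the 600 genes at 0.05, for 7 comparisons. The fit was tested on simulated data. Correlations used deviations from group means, with 100000 permutations within groups (two-sided, scipy 1.17.1). Gene symbols were matched to a RefSeq table of GRCm38.p6 (736 directly, 8 as older symbols, 6 not). The members and all lists were chosen with earlier results of these data known. All members are named, with the 8 most similar genes, Ptprc and, per list, the genes that passed (at most 4, by p, where more did) or the one with the lowest p; not all of these are given values, 1 is not reported here, and genes given as ends of a range were picked after their values were seen. Alternatives were centring, quantile normalisation, other filters, no trend, robust fitting, array weights, limma-voom, 10 added before the logarithm, Ptprc as a covariate, omission of 4 tumours of low count and of each tumour in turn. The labels name no batch.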

Additional observations from a re-analysis of the deposited data

Results flagged for a closer look

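Mx1 in DMSO isotype tumour 23 was 5.91 on the log2 scale, and the next tumour of its group was at 3.67. The gap made up 0.779 of the range of the 6 tumours, above Dixon's 95% critical value of 0.625. Behind the value were 11 counts, in the tumour with the fewest counts of all (62699). Each of the 10 genes was checked in 4 groups, 40 sets in all, and this was the 1 value found, while chance flags about 1 in 20 sets.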

How the results depend on the processing

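The median r between members was 0.78 as reported and ran from 0.72 (Spearman) to 0.84 (without the 4 tumours of low count) under 28 alternatives. Outside these alternatives, the median over the pairs was 0.70 without the 2 tumours farthest from the median. Within single groups it ran from 0.66 in DMSO isotype to 0.88 in NP1867 isotype tumours. The count of members called for anti-PD-1, averaged over both cultures, was 4; it was 0 after centring on each tumour's median, 1 after quantile normalisation, 0 with Ptprc as a covariate, 7 with array weights and 1 to 5 with 1 tumour left out. Array weights also gave 3 in NP1867 and 4 in DMSO tumours, each 0 in the fit reported. The counts for NP1867 against DMSO and for the difference between responses were 0 under every alternative run. Over all tested genes the anti-PD-1 count ranged from 53 to 404 averaged (176 reported), from 14 to 267 in NP1867 tumours (74) and from 0 to 273 in DMSO tumours (0). The causes were not tested. No paired analysis was possible because no pair of groups shares more than 1 tumour number; numbers 47 and 74, which each occur in a pair of groups, were counted as separate animals, since nothing in the labels says that a number marks the same animal or batch. Low counts limit Mx1 and the interferon genes, and 6 tumours a group limit all the rest.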
